A study of Mus musculus with 12 samples.

Results

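The 10 genes described here encode the machinery that loads peptides on class I molecules of the major histocompatibility complex (MHC) and the immunoproteasome subunits that help to make those peptides. They were taken by gene symbol from a list of B2m, H2-K1, H2-D1, H2-T23, Tap1, Tap2, Tapbp, Psmb8, Psmb9 and Psmb10. This list was drawn up with earlier results of these data known. The genes are 10 of 28977 gene IDs in the table. All 10 passed the filter on low values, which kept 12026 genes. The libraries are mRNA from J774A.1, a macrophage-like line that comes from a BALB/c mouse. Cells in 3 groups of 3 libraries each were given hypochlorous acid (HOCl), the oxidant that the neutrophil enzyme myeloperoxidase makes, in the salt solution HBSS at 0 µM (the vehicle, named HBSS here), 20 µM or 100 µM, and the 3 libraries of the remaining group were given cell media in its place. Exposure lasted 1 h, and all groups then spent 24 h in full cell media before RNA was taken. The labels name a single cell line and do not say whether replicates came from separate cultures, so the spread behind each p-value is that of these samples and may be technical.

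Class I molecules sit on the surface of nearly all nucleated cells and show peptides from inside the cell to CD8+ T cells and natural killer cells. Each consists of a heavy chain, such as the products of H2-K1 and H2-D1, the light chain beta-2 microglobulin (B2m) and a peptide. The peptides are cut by the proteasome, carried into the endoplasmic reticulum by the transporter that Tap1 and Tap2 form, and loaded with the help of tapasin (Tapbp). Under interferon the proteasome subunits Psmb8, Psmb9 and Psmb10 replace Psmb5, Psmb6 and Psmb7 in newly made particles, which are then called immunoproteasomes, and the same signal raises most other genes of the pathway.

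Replicates 1 and 2 of the cell media group stood apart. Across genes, their values had a Pearson r of 0.988 with each other and of 0.946 to 0.971 with the other 10 libraries, whose lowest r among themselves was 0.974. The counts of genes that passed the main test are therefore given with all 12 libraries and with the 10 that remain without these 2. Some results of single genes are given with 12 libraries only. The FPKM values (fragments per kilobase of exon, scaled to sequencing depth) rested on 17683937 to 21408518 reads a library. All 10 macrophage markers examined were kept, among them Lyz2 at 2020 to 2890 FPKM and Cd68 at 771 to 918 FPKM. None of the markers of T cells (4), B cells (4), dendritic cells (5), epithelium (4) or fibroblasts (4) reached 1 FPKM in any library, and of 5 neutrophil markers only S100a8 did, at 9.71 to 19.1 FPKM. In bulk RNA, fewer cells that express a gene and less of its RNA per cell cannot be told apart.

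Of the 10 genes, 8 lie on mouse chromosome 17, where Psmb9, Tap1, Psmb8 and Tap2 follow one another, while B2m lies on chromosome 2 and Psmb10 on chromosome 8. The RefSeq promoter table (build GRCm38.p6) held 9 of the 10, with the exception of Tap2. The 250 bases before the start are shown for the pair of classical heavy chains, for B2m and Psmb8, and for H2-T23. The level of H2-T23 differed most between HOCl at 100 µM and HBSS. For Tap1 and Psmb9 the stretch between their RefSeq starts is shown. Capitals mark matches on either strand to AANNGAAA, the core of sites for interferon regulatory factors, to TTCNNNGAA, the core of STAT sites, or to GGGNTTCCC, part of many kappa B sites (the binding sites of NF-kappa B), and these motifs were chosen after the sequences had been seen.
H2-K1 (chr17:34000348-34000597, minus strand): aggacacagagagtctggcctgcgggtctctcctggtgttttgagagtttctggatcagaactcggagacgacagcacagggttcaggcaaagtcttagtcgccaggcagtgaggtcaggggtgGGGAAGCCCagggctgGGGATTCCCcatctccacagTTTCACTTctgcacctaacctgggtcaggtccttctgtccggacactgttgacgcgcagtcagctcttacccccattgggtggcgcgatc
H2-D1 (chr17:35262844-35263093, plus strand): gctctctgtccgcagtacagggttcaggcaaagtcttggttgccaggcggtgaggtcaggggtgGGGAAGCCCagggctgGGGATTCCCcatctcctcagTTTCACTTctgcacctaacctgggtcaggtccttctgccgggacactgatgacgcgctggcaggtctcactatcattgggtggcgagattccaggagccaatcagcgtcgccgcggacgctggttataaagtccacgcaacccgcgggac
H2-T23 (chr17:36032702-36032951, minus strand): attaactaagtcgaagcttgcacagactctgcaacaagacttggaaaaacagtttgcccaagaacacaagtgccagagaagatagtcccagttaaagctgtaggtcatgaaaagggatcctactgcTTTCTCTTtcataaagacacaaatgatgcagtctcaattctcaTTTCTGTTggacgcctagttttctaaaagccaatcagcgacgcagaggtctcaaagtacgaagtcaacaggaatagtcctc
B2m (chr2:122147437-122147686, plus strand): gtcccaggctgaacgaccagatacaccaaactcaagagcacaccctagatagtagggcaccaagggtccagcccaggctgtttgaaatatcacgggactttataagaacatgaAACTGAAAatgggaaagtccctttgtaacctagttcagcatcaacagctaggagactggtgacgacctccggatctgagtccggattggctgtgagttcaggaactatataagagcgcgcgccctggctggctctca
Psmb8 (chr17:34197945-34198194, plus strand): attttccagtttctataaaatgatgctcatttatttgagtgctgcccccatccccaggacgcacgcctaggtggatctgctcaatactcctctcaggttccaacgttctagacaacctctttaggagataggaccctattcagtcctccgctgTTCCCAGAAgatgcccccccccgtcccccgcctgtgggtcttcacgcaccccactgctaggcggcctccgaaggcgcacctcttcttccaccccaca
Tap1 and Psmb9 (chr17:34187331-34187555, plus strand): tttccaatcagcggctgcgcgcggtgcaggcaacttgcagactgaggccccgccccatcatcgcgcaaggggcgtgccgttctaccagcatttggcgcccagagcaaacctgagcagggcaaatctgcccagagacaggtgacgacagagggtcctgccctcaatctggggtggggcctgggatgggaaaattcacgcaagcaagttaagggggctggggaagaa

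The windows of H2-K1 and H2-D1 each held 2 matches to GGGNTTCCC, 1 on either strand, followed by the letters TTTCACTT, which match AANNGAAA on the other strand. These windows were identical at 166 of the 190 bases that could be aligned, or 87.4%. H2-T23 had no kappa B match and 2 matches to AANNGAAA, and B2m had 1. Psmb8 had 1 match to TTCNNNGAA. Tap1 and Psmb9 are transcribed away from each other, and the 225 bases between their RefSeq starts had none of the 3 motifs. Over 32536 windows of the same length, AANNGAAA was found in 21.3%, TTCNNNGAA in 7.04% and GGGNTTCCC in 506 windows, or 1.56%. No marked match overlapped a match of another motif, and a match is only a description of letters. The letters are those of the reference genome, which is not BALB/c, so those of J774A.1 may differ.

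B2m had the highest level of the 10, with a mean of 965 FPKM over the 12 libraries, and ranked 31st of the 12026 genes kept. The classical heavy chains followed, H2-D1 with 204.5 FPKM and H2-K1 with 94.8 FPKM, and then tapasin with 42.9 FPKM. H2-D1 exceeded H2-K1 in 12 of 12 libraries. Among the immunoproteasome subunits, Psmb8 averaged 28.7 FPKM, Psmb10 22.1 FPKM and Psmb9 11.04 FPKM, in that order in each of the 12 libraries. The transporter subunits were lower, Tap2 with 10.6 FPKM and Tap1 with 7.25 FPKM, and the non-classical heavy chain H2-T23 was lowest with 6.91 FPKM. Psmb9 exceeded Tap2 in only 4 of 12 libraries and Tap1 exceeded H2-T23 in 7 of 12, so these neighbours were not ordered beyond their spread. FPKM divides by the length of all annotated exons, from 860 bases for B2m to 5476 for Tap1, so an order between genes also depends on the annotation. The heavy chains belong to a family of near-identical genes, and the reference is not BALB/c, so reads may be shared between them or lost.

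**Figure D1:**
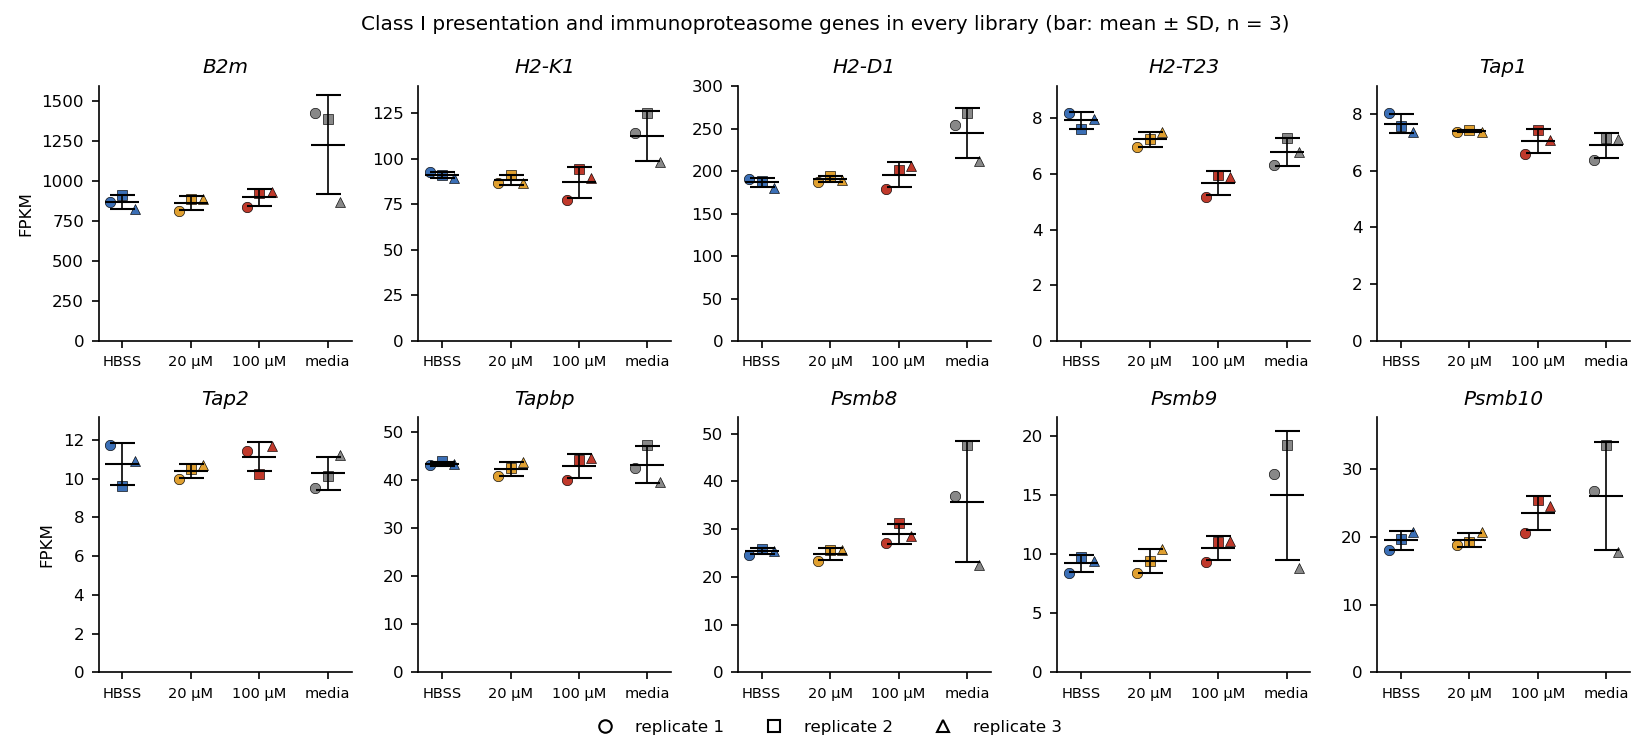
FPKM of each gene (vertical axes, from 0) in the 12 libraries, by group, with points for libraries (shape gives the replicate) and bars for the mean ± SD of 3 libraries. H2-T23 was lowest in the 3 libraries of HOCl at 100 µM, while B2m and the 3 immunoproteasome subunits were highest in cell media replicates 1 and 2.

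The first question was whether HOCl moved these genes relative to its vehicle. At 100 µM, H2-T23 was lower than in HBSS in every library, the 3 immunoproteasome subunits had somewhat higher means, and B2m, H2-K1, H2-D1, Tap2 and Tapbp had means between 95.5% and 105% of the HBSS mean. With 12 libraries none of the 10 genes was called by limma, where a call needs a p under 0.05 after Benjamini-Hochberg adjustment across all 12026 genes, and neither was any other gene, a share of 0%. At an unadjusted p under 0.05 there was 1 of the 10, H2-T23, beside 7.76% of all genes. Without cell media replicates 1 and 2, H2-T23 was called, 1 of 10, beside 29 genes or 0.241% of all, and 3 of the 10 (H2-T23, Psmb8 and Psmb10) had an unadjusted p under 0.05, beside 32.2%. The groups did not overlap for 2 of the 10, H2-T23 below and Psmb8 above HBSS, beside 34.1% of all genes (17.6% below, 16.5% above), so this share is not above that of the table. The median log2 difference of the 10 was 0.05, and that of all genes was -0.01.

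H2-T23 encodes the heavy chain of Qa-1, which shows leader peptides of other class I chains to receptors of natural killer cells. It had 5.19, 5.95 and 5.89 FPKM in HOCl at 100 µM, against 8.18, 7.61 and 7.98 FPKM in HBSS. All 3 HOCl libraries lay below all 3 vehicle libraries, and below the other 9 libraries of the series as well. The mean was 5.68 ± 0.42 FPKM in HOCl at 100 µM and 7.92 ± 0.29 FPKM in HBSS (SD, n = 3 each), so the HOCl mean was 71.6% of the vehicle mean. The difference of log2(FPKM + 1) was -0.42 (SE 0.0759), with an unadjusted p of 0.000187 and an adjusted p of 0.374 in limma with 12 libraries. H2-T23 fell by the same 0.42 with 10 libraries, where the SE was 0.0571 and the adjusted p in limma was 0.0463, with a 95% interval of -0.55 to -0.29. Between 282 and 506 reads a library stood behind these values. On those reads, limma-voom with 10 libraries gave -0.48 and an adjusted p of 0.0264, where 6.34% of all genes were called.

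H2-T23 was also lower at 20 µM than in HBSS, with 6.98, 7.25 and 7.53 FPKM in HOCl at 20 µM. These values lay below all 3 HBSS libraries and above all 3 libraries of 100 µM, so the 3 groups did not overlap and followed the dose. The difference of 20 µM from HBSS was -0.11 (SE 0.0759; limma, adjusted p = 1.00) and that of 100 µM from 20 µM was -0.31 (SE 0.0759; limma, adjusted p = 0.825). With 10 libraries the adjusted p of the second difference was 0.124, so neither step passed the test alone. The groups did not overlap and were lower in 3.48% of all genes for 20 µM against HBSS and in 15.6% for 100 µM against 20 µM. Both doses were compared with the same 3 HBSS libraries.

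The immunoproteasome subunits were somewhat higher at 100 µM. Psmb8, the chymotrypsin-like subunit also called LMP7, had 27.1, 31.4 and 28.5 FPKM in HOCl at 100 µM, against 24.7, 25.9 and 25.5 FPKM in HBSS. All 3 HOCl libraries were above all 3 vehicle libraries, and also above those of 20 µM, which had 23.4, 25.6 and 25.7 FPKM. The difference from HBSS was 0.18 (SE 0.201; limma with 12 libraries, adjusted p = 0.741), and with 10 libraries its SE was 0.0604, its unadjusted p 0.0149 and its adjusted p 0.0945. Psmb8 thus did not pass the test with either set of libraries in the model without a replicate block.

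Psmb10, the trypsin-like subunit known as MECL-1, had 20.6, 25.4 and 24.5 FPKM in HOCl at 100 µM, against 18.0, 19.7 and 20.7 FPKM in HBSS. The lowest HOCl library lay just under the highest vehicle library, so the groups overlapped. The difference was 0.26 (SE 0.18; limma with 12 libraries, adjusted p = 0.675; 10 libraries, adjusted p = 0.0918). Psmb9, also called LMP2, had 9.38, 11.1 and 11.2 FPKM in HOCl at 100 µM, against 8.44, 9.80 and 9.44 FPKM in HBSS. Here too the first HOCl library lay inside the vehicle range. The difference was 0.17 (SE 0.215; limma with 12 libraries, adjusted p = 0.766; 10 libraries, adjusted p = 0.217). For all 3 subunits the sign stayed positive under every alternative run for this comparison, although several of these cannot move the difference. These p-values are from the model without a replicate block. With 10 libraries and the block the outcome of the test differed for all 3 subunits, as the closing section gives.

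The constitutive core of the proteasome, 14 subunits from a list of the remaining alpha and beta subunits, was higher at 100 µM as well. All 14 had a positive difference from HBSS, beside 48.5% of all genes, with a median of 0.165. Under quantile normalization 1 of the 14 turned negative and the median was 0.07. In 11 of 14 the groups did not overlap, beside 16.5% of all genes in that direction. None of the 14 was called in limma with 12 or 10 libraries; at an unadjusted p under 0.05 there were 0 of 14 with 12 libraries, beside 7.76% of all genes, and 12 of 14 with 10, beside 32.2%. On the recovered reads, limma-voom with 10 libraries called 3 of 14, all higher (Psma7, Psmb4 and Psmb5), beside 6.34% of all genes. The highest by level were Psmb6 with 195 ± 2.51 FPKM in HOCl at 100 µM and 180 ± 6.73 FPKM in HBSS, and Psma6 with 179 ± 12.3 FPKM in HOCl at 100 µM and 168 ± 7.45 FPKM in HBSS (SD, n = 3 each). Psmb4 followed with 142 ± 7.03 FPKM in HOCl at 100 µM and 121 ± 5.82 FPKM in HBSS, and Psma7 with 109.6 ± 3.20 FPKM in HOCl at 100 µM and 93.4 ± 3.79 FPKM in HBSS.

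The immunosubunits were also set against the subunit that each replaces. Psmb8 was 31.5%, 32.1% and 30.9% of Psmb5 in HOCl at 100 µM, against 34.1%, 31.2% and 35.0% in HBSS. The groups overlapped, and the log2 ratio differed by -0.08 with an SD between libraries of 0.065. Psmb9 was 4.77%, 5.75% and 5.69% of Psmb6 in HOCl at 100 µM and 4.59%, 5.32% and 5.48% in HBSS, a log2 difference of 0.07 with an SD of 0.144. Psmb10 was 47.4%, 53.5% and 52.8% of Psmb7 in HOCl at 100 µM and 45.0%, 47.2% and 51.0% in HBSS, a log2 difference of 0.10 with an SD of 0.0934. These ratios do not depend on how a library is scaled, but their size depends on exon length. No test was run on them, and an exact permutation test of 3 against 3 libraries could not give a p below 0.1. At 20 µM the log2 ratios differed from HBSS by -0.06, 0.08 and -0.02 for the same 3 pairs, each less than the SD between libraries.

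**Figure D2:**
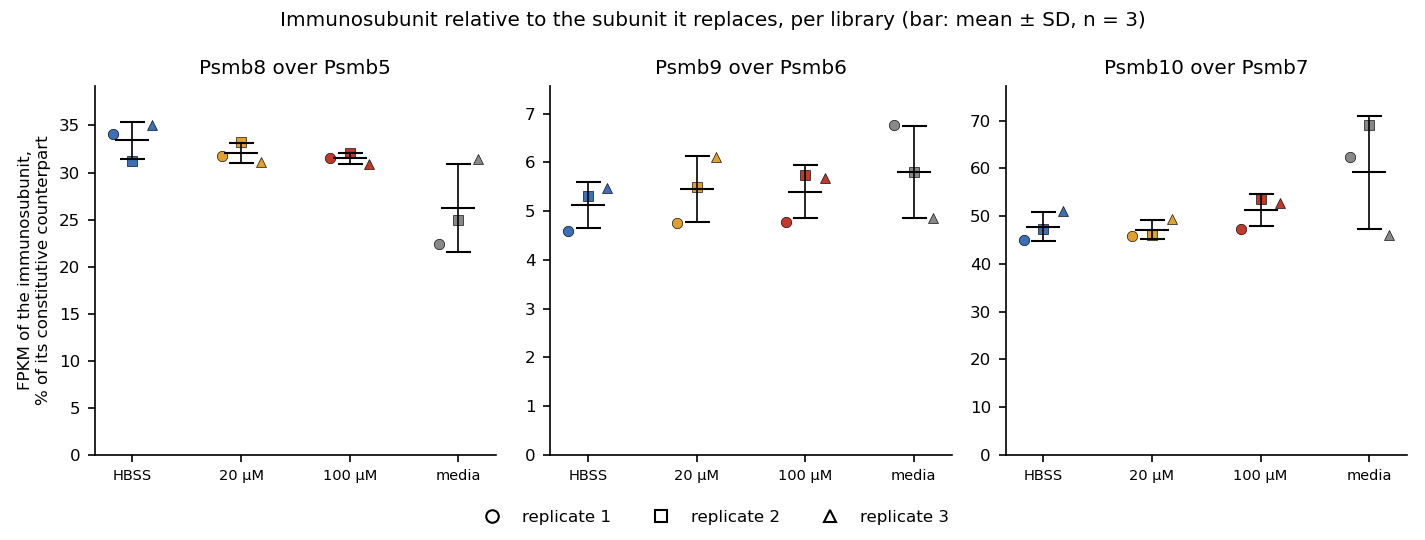
FPKM of each immunosubunit as a percentage of the constitutive subunit it replaces (vertical axes, from 0), by group, with points for libraries and bars for the mean ± SD of 3 libraries. The groups of HOCl and HBSS overlap in all 3 panels, while cell media replicates 1 and 2 lie apart from the other 10 libraries in the panels of Psmb8 (22.4% and 24.9% of Psmb5) and Psmb10 (62.4% and 69.0% of Psmb7).

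B2m and the classical heavy chains, the molecules that carry the peptide to the surface, were close to the vehicle at both doses. B2m had 838, 923 and 934 FPKM in HOCl at 100 µM, against 868, 913 and 827 FPKM in HBSS, and the groups overlapped. H2-K1 had 77.7, 94.3 and 89.4 FPKM in HOCl at 100 µM, against 93.0, 91.1 and 89.7 FPKM in HBSS. H2-D1 had 179, 201 and 207 FPKM in HOCl at 100 µM, against 191, 189 and 180 FPKM in HBSS. In both heavy chains the HOCl libraries spread over the whole vehicle range, and the first HOCl library was the lowest. With 10 libraries the 95% interval of the difference in limma was -0.09 to 0.19 for B2m, -0.22 to 0.08 for H2-K1 and -0.06 to 0.19 for H2-D1. The differences of B2m and H2-D1 were positive as deposited and negative under quantile normalization.

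The transporter and loading genes were likewise near the vehicle. Tap1 had 6.59, 7.45 and 7.09 FPKM in HOCl at 100 µM, against 8.03, 7.60 and 7.38 FPKM in HBSS. The groups overlapped by a single library, and the difference was -0.11 (SE 0.0711; limma with 12 libraries, adjusted p = 0.671; 10 libraries, adjusted p = 0.178). Tap2 had 11.4, 10.3 and 11.7 FPKM in HOCl at 100 µM, against 11.7, 9.62 and 10.9 FPKM in HBSS, a difference of 0.05. Tapbp had 40.0, 44.1 and 44.6 FPKM in HOCl at 100 µM, against 43.0, 43.8 and 43.3 FPKM in HBSS, a difference of -0.02. The HOCl libraries of Tap2 lay inside the vehicle range, and those of Tapbp fell on either side of it. The 95% interval with 10 libraries was -0.12 to 0.22 for Tap2 and -0.13 to 0.09 for Tapbp. In the annotation used for exon lengths, which places the start of Psmb9 further upstream than RefSeq does, the exons of Tap1 and Psmb9 overlap. The counting is not stated to use strand, so reads in that overlap cannot be told apart.

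At 20 µM none of the 10 genes was called in limma against HBSS with 12 or 10 libraries, and none had an unadjusted p under 0.05, beside 0% of all genes called with either set and 1.08% (12 libraries) or 3.08% (10 libraries) of all genes under an unadjusted 0.05. Their differences were between -0.11 for H2-T23 and 0.03 for H2-D1, with a median of -0.03 beside 0.01 for all genes. Groups did not overlap in 1 of the 10, H2-T23, beside 7.69% of all genes. B2m had 814, 888 and 890 FPKM in HOCl at 20 µM, H2-K1 86.8, 91.4 and 86.7 FPKM and H2-D1 188, 195 and 189 FPKM. The transporter subunits had 7.37, 7.44 and 7.37 FPKM for Tap1 and 9.97, 10.5 and 10.7 FPKM for Tap2, and Tapbp had 40.8, 42.4 and 43.6 FPKM. Psmb9 had 8.42, 9.40 and 10.4 FPKM and Psmb10 18.7, 19.2 and 20.7 FPKM. Apart from those of H2-T23, these values overlapped the HBSS libraries. With 10 libraries, the widest 95% interval among the 10 genes was that of Psmb9, -0.18 to 0.23.

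Between the doses, Psmb8 was 116% and H2-T23 78.3% of the 20 µM mean in HOCl at 100 µM. These were the 2 of 10 genes whose groups did not overlap, beside 28.3% of all genes. None of the 10 was called in limma with 12 or 10 libraries, beside 0% of all genes in both. With an unadjusted p under 0.05 there were 1 of 10 with 12 libraries, beside 4% of all genes, and 3 of 10 with 10 libraries, namely H2-T23, Psmb8 and Psmb10, beside 26.2%. Psmb10 differed by 0.25 between the doses (SE 0.0826 with 10 libraries; limma, adjusted p = 0.135).

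**Figure D3:**
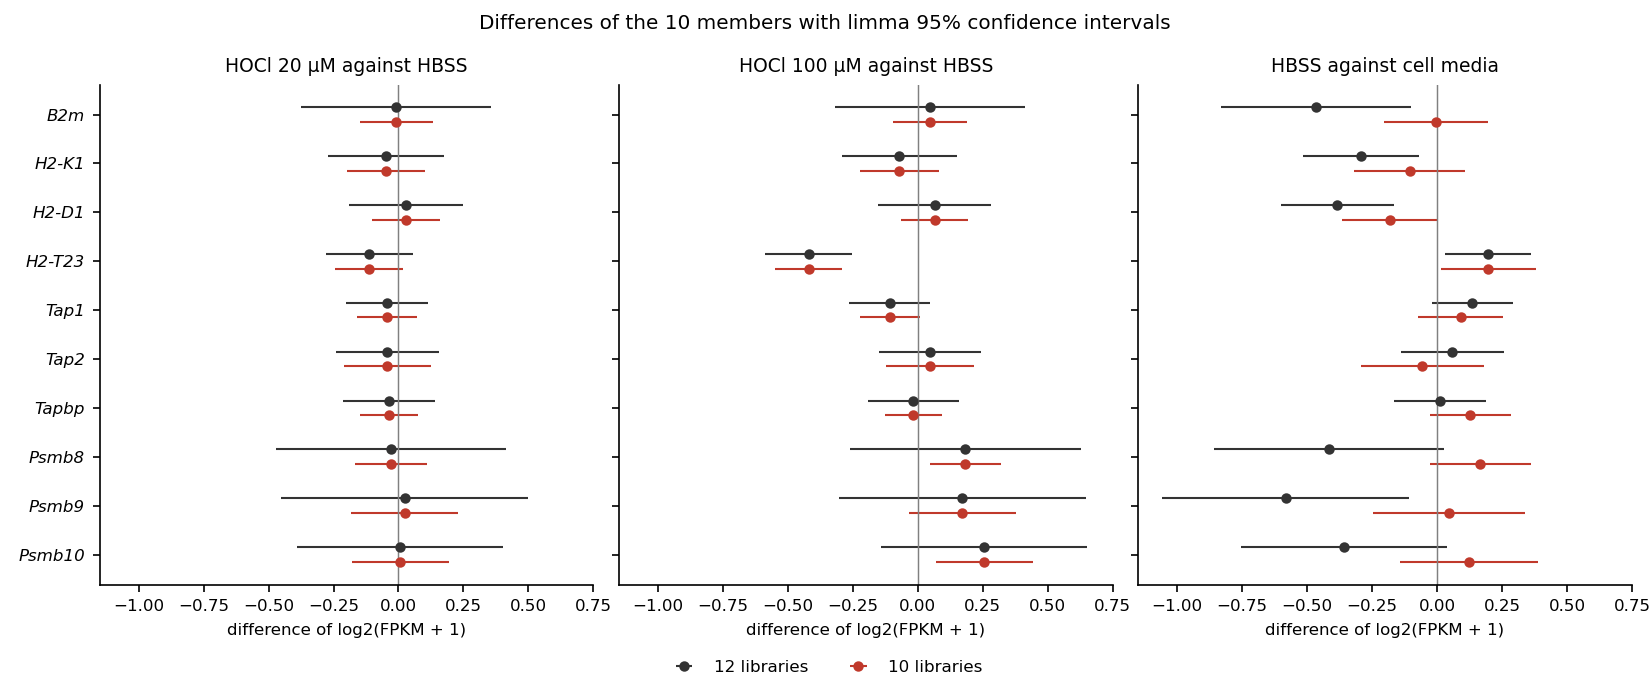
Difference of log2(FPKM + 1) for each gene (horizontal axes) in 3 comparisons, with points for the limma estimate and lines for its 95% confidence interval, in black with 12 libraries and in red with the 10 that leave out cell media replicates 1 and 2. At 100 µM the interval of H2-T23 lies below 0 with both sets (-0.55 to -0.29 with 10), and in HBSS against cell media the estimate of B2m is -0.47 with 12 libraries and -0.00 with 10.

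The last comparison asked what the vehicle itself did. With 12 libraries, H2-K1 and H2-D1 were lower and H2-T23 and Tap1 higher in every HBSS library than in every cell media library, 4 of 10 genes whose groups did not overlap beside 21.6% of all genes. None of the 10 was called in limma, beside 2 genes or 0.0166% of the table, while 5 of 10 had an unadjusted p under 0.05, beside 40% of all genes. The median difference of the 10 was -0.33, and that of all genes was 0.10. H2-D1 had 191, 189 and 180 FPKM in HBSS, against 255, 268 and 212 FPKM in cell media, a difference of -0.38 (SE 0.0990; limma, adjusted p = 0.0711). H2-K1 had 93.0, 91.1 and 89.7 FPKM in HBSS, against 114, 125 and 98.2 FPKM in cell media, a difference of -0.29 (SE 0.101; limma, adjusted p = 0.0771). In both genes the third cell media library lay nearest to HBSS, and cell media replicates 1 and 2 were above the other 10 libraries. Over the alternatives run, the difference was as small as -0.13 for H2-D1 and -0.094 for H2-K1.

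B2m and the immunoproteasome subunits were split between the cell media libraries. B2m had 868, 913 and 827 FPKM in HBSS, against 1425, 1392 and 871 FPKM in cell media. Psmb8 had 24.7, 25.9 and 25.5 FPKM in HBSS, against 37.0, 47.7 and 22.5 FPKM in cell media. Psmb9 had 8.44, 9.80 and 9.44 FPKM in HBSS, against 16.8, 19.3 and 8.88 FPKM in cell media, and Psmb10 18.0, 19.7 and 20.7 FPKM in HBSS, against 26.7, 33.5 and 17.7 FPKM. In these 4 genes cell media replicates 1 and 2 were above the other 10 libraries, and replicate 3 was inside or below the HBSS range. The differences with 12 libraries were -0.47 for B2m, -0.42 for Psmb8, -0.58 for Psmb9 and -0.36 for Psmb10. Without replicates 1 and 2 they were -0.00, 0.17, 0.05 and 0.12, with the single remaining cell media library assumed to vary like the other groups. Without cell media replicate 3 in their place, 7 of the 10 genes were called in limma, beside 7852 of the 12026 genes kept. The calls of this comparison thus depended on which cell media libraries were used. So did the signs for Psmb8, Psmb9, Psmb10, Tap2 and Tapbp, and with a replicate block also that for B2m. H2-K1 and H2-D1 stayed lower, and H2-T23 and Tap1 higher, under all alternatives run. With 10 libraries none of the 10 was called, beside 0% of all genes, and 1 of 10, H2-T23, had an unadjusted p under 0.05, beside 6.84%.

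H2-T23, Tap1, Tap2 and Tapbp did not share that split. H2-T23 had 8.18, 7.61 and 7.98 FPKM in HBSS, against 6.31, 7.30 and 6.78 FPKM in cell media, and its difference was 0.20 with 12 libraries (limma, adjusted p = 0.0919) and 0.20 with 10 (limma, adjusted p = 0.644). Tap1 had 8.03, 7.60 and 7.38 FPKM in HBSS, against 6.38, 7.17 and 7.13 FPKM in cell media, a difference of 0.14 with 12 libraries and 0.09 with 10. Tap2 had 9.49, 10.1 and 11.2 FPKM in cell media and Tapbp 42.5, 47.2 and 39.6 FPKM, and both groups overlapped HBSS. Relative to the subunit it replaces, Psmb8 was 34.1%, 31.2% and 35.0% in HBSS, against 22.4%, 24.9% and 31.4% in cell media. Psmb10 was 45.0%, 47.2% and 51.0% of Psmb7 in HBSS, against 62.4%, 69.0% and 46.1% in cell media. The ratio of Psmb8 was thus lowest, and that of Psmb10 highest, in cell media replicates 1 and 2.

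Further genes of the class I pathway were read from lists. Of 16 other class I or related heavy chains, 15 had an ID in the table and 11 were kept, led by H2-M3, H2-Q4, Fcgrt (the neonatal Fc receptor) and H2-T22. At 100 µM, 7 of these 11 were higher and 4 lower than in HBSS, beside 48.5% of all genes higher, with a median of 0.02. None was called in limma with 12 or 10 libraries, while limma-voom with 10 called 1, Cd1d1, beside 6.34% of all genes. H2-M3, which presents formylated peptides, had 31.8 ± 1.13 FPKM in HOCl at 100 µM and 33.6 ± 2.63 FPKM in HBSS, and H2-Q4 22.8 ± 2.05 FPKM in HOCl and 22.6 ± 1.98 FPKM in HBSS. Fcgrt had 10.9 ± 0.92 FPKM in HOCl at 100 µM and 9.56 ± 0.64 FPKM in HBSS, and H2-T22 7.25 ± 0.36 FPKM in HOCl and 7.11 ± 0.31 FPKM in HBSS (SD, n = 3 each). Groups did not overlap for 2 of the 11, beside 34.1% of all genes, and both were chosen here after their values were seen. The non-classical chain H2-T24 had 2.88, 2.09 and 2.32 FPKM in HOCl at 100 µM, against 3.19, 4.43 and 5.00 FPKM in HBSS. Cd1d1, which presents lipids, had 4.03, 3.58 and 4.24 FPKM in HOCl at 100 µM, against 2.27, 2.45 and 3.09 FPKM in HBSS. H2-T24 was thus on the low side with H2-T23, and Cd1d1 on the high side.

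The peptide supply and loading list held 12 genes, all kept. At 100 µM, 7 were higher and 5 lower than in HBSS, beside 48.5% of all genes higher. The median was 0.03, and -0.03 under quantile normalization. None was called in limma with 12 or 10 libraries, while limma-voom with 10 called 1, Pomp, beside 6.34% of all genes. The chaperones of the loading complex had the highest levels, and Calr (calreticulin) had 459, 561 and 551 FPKM in HOCl at 100 µM, against 339, 461 and 479 FPKM in HBSS. Pdia3, the disulfide isomerase bound to tapasin, had 313 ± 21.9 FPKM in HOCl at 100 µM and 269 ± 30.9 FPKM in HBSS, and Canx (calnexin) 204 ± 2.56 FPKM in HOCl and 198 ± 12.7 FPKM in HBSS. Psme1, part of the PA28 activator of the proteasome, had 46.3 ± 2.48 FPKM in HOCl at 100 µM and 42.9 ± 0.54 FPKM in HBSS (SD, n = 3 each). The groups of Calr overlapped by 1 library and those of Canx overlapped. Groups did not overlap for 5 of the 12, with Pdia3, Pomp and Psme1 higher and Erap1 and Lnpep lower, beside 34.1% of all genes. In HBSS against cell media, Calr, Pdia3 and Canx had differences of 0.62, 0.69 and 0.59 with 12 libraries and of 0.51, 0.33 and 0.20 with 10, none called in limma with either. The median of the 12 genes in that comparison was 0.46 with 12 libraries and 0.12 with 10.

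Of 26 regulators of class I transcription, 25 were kept. At 100 µM 10 were higher and 15 lower than in HBSS, beside 48.5% of all genes higher, with a median of -0.03. None was called in limma with 12 or 10 libraries, while limma-voom with 10 called 1, Creb1, which was lower, beside 6.34% of all genes. The highest by level were Irf8, Jak1, Rela and Ifngr2. Irf8, a transcription factor of macrophage identity, had 29.1 ± 0.62 FPKM in HOCl at 100 µM, 27.9 ± 1.16 FPKM at 20 µM and 25.9 ± 0.31 FPKM in HBSS (SD, n = 3 each), and both doses lay above every HBSS library. Jak1 had 24.0 ± 1.06 FPKM in HOCl at 100 µM and 24.3 ± 0.47 FPKM in HBSS, Rela 20.2 ± 0.92 FPKM in HOCl and 18.9 ± 1.13 FPKM in HBSS, and Ifngr2 18.0 ± 0.88 FPKM in HOCl and 17.6 ± 0.75 FPKM in HBSS. Groups did not overlap for 6 of the 25, with Irf8 higher and Creb1, Ifnar1, Irf9, Jak2 and Nfkb1 lower, beside 34.1% of all genes. Nlrc5, the transactivator of class I genes, is named here after its values were seen; it had 2.86 ± 0.77 FPKM in HOCl at 100 µM and 3.99 ± 0.68 FPKM in HBSS, and the groups overlapped.

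**Figure D4:**
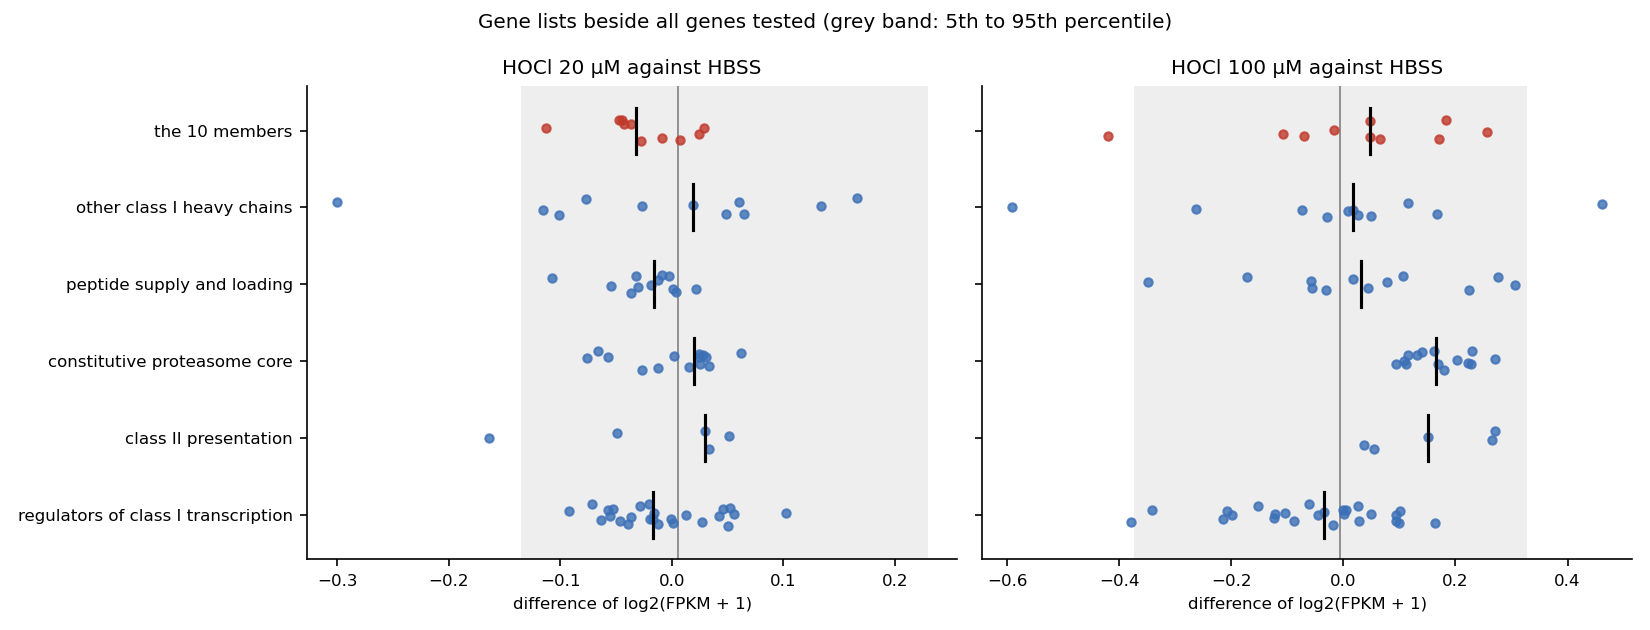
Difference of log2(FPKM + 1) (horizontal axes) from HBSS at each HOCl dose for the 10 genes and the 5 lists, with points for genes, black ticks for the median of a list, a grey line for the median of all 12026 genes and a grey band from their 5th to their 95th percentile. At 100 µM the 14 subunits of the constitutive core all lie above 0 as deposited (1 of 14 does not under quantile normalization), and H2-T23 lies below the band.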

How the data were processed

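Messenger RNA of 12 libraries was measured. Per the submitters' processing notes, reads were processed with HISAT2 and featureCounts on build GRCm39; their versions, settings and use of strand are not given in the sources used here. From these the authors deposited FPKM values for 28977 gene IDs and no counts. Symbols and exon lengths came from GENCODE M21, of an older build, matching 28302 IDs, so gene names and lengths only were used. Values below 1 FPKM lay on multiples of 1 read: 98.14% to 98.41% of them a library were whole within 0.01, which gave the depths and the reads for limma-voom.

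Genes with at least 1 FPKM in at least 3 libraries were kept (12026), and log2(FPKM + 1) was fitted in limma 3.58.1 (R 4.3.3; two-sided), with 1 mean per group, all 12 libraries and a mean-variance trend. Fold changes on this scale understate those of low genes. The step was tested on simulated data. Plots used matplotlib 3.10.9. The 10 genes and the lists were chosen with earlier results of these data known. Named genes were the 10, the 4 with the highest mean in each list, any called gene of a list, and the 5 genes most like the 10, of which 1 is not reported here. Alternatives are given with their effects in the closing section; no library was left out of the values reported first. The labels name 2 sequencing instruments and tie neither to a library, so batch was not tested.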

Additional observations from a re-analysis of the deposited data

How the results depend on the processing

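Each of the 40 differences (10 genes, 4 comparisons) was recomputed under 22 alternatives, 2 of them chosen after seeing the data (limma-voom on recovered reads). Of 880 recomputed values, 819 kept direction and side of the threshold, 16 newly passed it and 45 changed sign, and the cause was not tested. Several alternatives cannot move a difference, such as no filter or leaving out a library of a group not compared. For these only the SE and the p-value can change, so part of the kept directions was fixed in advance. With 12 libraries the numbers called over all genes were 0 at 20 µM, 0 at 100 µM, 0 between the doses and 2 for HBSS against cell media. These became 6, 1, 11 and 5 with no filter, and 2, 1 and 0 for the last 3 comparisons with a model of the 2 groups compared. For HBSS against cell media the count was 4 under quantile normalization and 4 under limma-voom, and 0 without cell media replicates 1 and 2 in each such fit, limma-voom and replicate block included.

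At 100 µM against HBSS, leaving out cell media replicates 1 and 2 gave 29 genes and 1 of the 10 (H2-T23), and limma-voom on those libraries 754 genes and 1 of the 10. Deviations of same-numbered replicates had correlations between -0.06 and 0.41, and those of differently numbered replicates between -0.41 and 0.28. For replicates 1, 2 and 3 the same-numbered values were 0.351, -0.062 and 0.123 at 20 µM against HBSS. They were 0.264, 0.075 and -0.025 at 100 µM against HBSS, and 0.377, 0.055 and 0.414 between the doses. For HBSS against cell media they were -0.026, 0.346 and 0.031. Most same-numbered values were thus positive, but the 2 ranges overlapped. Whether the numbers pair the samples cannot be told from these values, and the labels do not say so. The replicate block gave 193 genes for HBSS against cell media with 12 libraries; with 10 it gave 2979 genes (24.8%) and 4 of the 10 (H2-T23, Psmb8, Psmb9, Psmb10) at 100 µM, and 2088 genes (17.4%) and 3 of the 10 (H2-T23, Psmb8, Psmb10) between the doses. With 10 libraries and the block, the lists had 2 of 11 other heavy chains, 5 of 12 supply and loading genes, 10 of 14 core subunits, 5 of 25 regulators and 1 of 5 class II genes called at 100 µM.

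Leaving out 1 library gave 0 to 5 genes at 100 µM and 0 to 1 between the doses. For HBSS against cell media it gave 0 to 7852 of the 12026 genes kept and 0 to 7 of the 10, the highest without cell media replicate 3. The median of the 10 was -0.028 under quantile normalization at 100 µM. For HBSS against cell media it was -0.093 under quantile normalization, 0.069 without cell media replicates 1 and 2, 0.10 with the replicate block as well, and 0.076 in limma-voom without them.

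Signs changed as follows. Under quantile normalization: B2m to 0.0080 and Psmb10 to -0.0078 at 20 µM, B2m to -0.020 and H2-D1 to -0.036 at 100 µM, B2m to -0.028, Tapbp to -0.032 and H2-D1 to -0.045 between the doses, and Tap2 to -0.028 for HBSS against cell media. Under median-of-ratios scaling: Psmb10 to -0.0013 at 20 µM, H2-K1 to 0.0019 between the doses, and Tapbp to -0.11 and Tap2 to -0.050 for HBSS against cell media. The other changes were in HBSS against cell media. Under limma-voom: Tapbp to -0.0024. Without cell media replicates 1 and 2: Psmb10 to 0.12, Psmb9 to 0.047, Psmb8 to 0.17 and Tap2 to -0.056, with the replicate block B2m to 0.0066, Psmb10 to 0.20, Psmb9 to 0.13, Psmb8 to 0.18 and Tap2 to -0.013, and in limma-voom Psmb10 to 0.13, Psmb9 to 0.049, Psmb8 to 0.17 and Tap2 to -0.061.

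Leaving out 1 library, the differences that changed sign ranged at 20 µM from -0.044 to 0.034 for B2m, -0.045 to 0.051 for Psmb10, -0.045 to 0.095 for Psmb9, -0.050 to 0.014 for Psmb8 and -0.11 to 0.017 for Tap2. At 100 µM they ranged from -0.044 to 0.031 for Tapbp, -0.13 to 0.0084 for H2-K1 and -0.024 to 0.11 for Tap2. Between the doses they ranged from -0.0080 to 0.068 for Tapbp, -0.082 to 0.056 for H2-K1 and -0.0046 to 0.098 for H2-D1. For HBSS against cell media they ranged from -0.047 to 0.078 for Tapbp and -0.00072 to 0.13 for Tap2. H2-T23 at 100 µM stayed between -0.48 and -0.37 under all alternatives run, with adjusted p from 0.0146 to 0.968.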

Other observations

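Genes of class II presentation, which shows peptides from outside the cell to CD4+ T cells, were mostly below the filter. Of 11 genes listed, 5 were kept. The transactivator Ciita and the class II chains H2-Aa, H2-Ab1 and H2-Eb1 were under 1 FPKM in all 12 libraries, while Ctss (cathepsin S) and the invariant chain Cd74 were high. Cd74 had 207, 223 and 243 FPKM in HOCl at 100 µM, against 215, 198 and 192 FPKM in HBSS, and these groups overlapped. In HBSS against cell media it had 215, 198 and 192 FPKM in HBSS and 300.0, 272 and 218 FPKM in cell media, again with the third cell media library nearest to HBSS. Ctss had 852 ± 36.4 FPKM in HOCl at 100 µM and 830.3 ± 19.2 FPKM in HBSS (SD, n = 3 each). H2-DMa, which edits class II peptides, had 4.24 ± 0.37 FPKM in HOCl at 100 µM and 3.34 ± 0.28 FPKM in HBSS, and H2-Oa 1.81 ± 0.14 FPKM in HOCl and 1.72 ± 0.39 FPKM in HBSS (SD, n = 3 each). All 5 were higher at 100 µM than in HBSS as deposited, beside 48.5% of all genes, and 4 of 5 under quantile normalization. Their median as deposited was 0.15, and none was called in limma with 12 or 10 libraries.

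The genes whose log2(FPKM + 1) followed the mean of the 10 standardized genes most closely over the 12 libraries included Mettl23, Sars2, Tmem177 and Rpl6l, with Pearson r between 0.933 and 0.938. The likeness was 0.917 for Mettl23 over the 10 libraries without cell media replicates 1 and 2, and 0.706 to 0.724 for Sars2, Tmem177 and Rpl6l. Of the 10 genes themselves, 7 had r of 0.823 to 0.89 with that mean over 12 libraries, while H2-T23 had 0.223, Tap1 -0.047 and Tap2 -0.288. Over the 10 libraries the same 7 had r of 0.409 to 0.858, H2-T23 0.373, Tap1 0.64 and Tap2 0.122, so Tap1 was then among them. Each of the 10 genes is part of that mean, which raises its own r, so these values are not comparable with those of the other genes. The values over 12 libraries share the 2 that stand apart, and all are descriptions.

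The 3 replicates of a group, the unknown origin of replicates and the reads shared within the class I family limit these results. H2-T23 rests on at most 506 reads a library, and no protein or surface level was measured.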
